A study of Mus musculus with 16 samples.

Results

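The binding sites of Cbx3 were compared with those of RNA polymerase II (Pol II) in untreated mouse neural progenitor cells. The comparison used the 3 libraries of untreated cells made with an antibody, out of 9 such libraries and 16 samples in the series. They were 2 libraries for Cbx3, called set 1 and set 2 here and made with the same anti-Cbx3 clone (42s2), and 1 library for Pol II, whose antibody the labels do not tie to any one phosphorylated form. All came from V6.5 embryonic stem cells that were taken through embryoid bodies for 4 days and then grown as a monolayer of progenitors, with no siRNA and no other treatment. Chromatin was fixed with 1% formaldehyde and sonicated before immunoprecipitation (ChIP-seq). The other antibody libraries came from cells given a control siRNA or an siRNA against Cbx3, and the 3 input libraries of the untreated cells were not used here. The labels name set 1 and set 2 as separate samples but do not say that they came from separate cultures, and Pol II had no replicate, so every value below is a description with no test.

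Cbx3, also called HP1 gamma, is one of the mammalian heterochromatin proteins. Its chromodomain binds histone H3 methylated on a lysine that marks silent chromatin, and it gathers at repeats and at silenced genes. It has also been found within transcribed genes, together with elongating Pol II. Pol II, the enzyme that transcribes protein-coding genes, is typically concentrated near gene starts. The pair therefore covers both silent and transcribed chromatin.

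Pol II regions covered 0.0732% of the autosomal span, so most listed Cbx3 lay away from them, but Cbx3 regions met Pol II more often than that share. At the Pol II sites themselves Cbx3 was listed several times more often than on the flanking DNA, mostly within 300 bp of the point of highest Pol II signal. At the scale of 1 Mb the relation of Cbx3 to Pol II was negative for Cbx3 set 1. It was weakly positive for set 2 and for windows listed in both sets. Which of these holds for Cbx3 as a protein cannot be told apart. The 2 Cbx3 libraries shared only a small part of their sites, though more than the share of the span that each covered.

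Each file lists windows of 50 bp that the authors kept, with a signal for each. On the 19 autosomes there were 871245 windows in Cbx3 set 1, 239443 in Cbx3 set 2 and 34661 in Pol II. Neighbouring windows were joined into a region when no more than 200 bp lay between them, and the highest window of a region is called its summit. This gave 394816 regions in Cbx3 set 1, 123605 in set 2 and 8094 for Pol II. A Cbx3 region of both sets was a set 1 region that shared at least 1 bp with set 2, and there were 13473 of these. The regions, with the gaps joined inside them, covered 1.85% of the autosomal span in Cbx3 set 1, 0.5% in set 2 and 0.0732% in Pol II. The scaling of the signal is not given in the sources used here, so signal was compared only within a library. The lists hold only windows above an unstated minimum, so the depth of each library is unknown and a window that is not listed may still hold signal.

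The Cbx3 libraries differed from each other in more than length. Of the set 2 regions, 13592 of 123605 overlapped set 1, or 11% (95% Wilson interval 10.8 to 11.2%). In the other direction 13473 of 394816 set 1 regions overlapped set 2, or 3.41%. Set 1 regions covered 1.85% of the autosomal span and set 2 regions 0.5%, so the sets met more often than these shares of the span. Wilson intervals cover counting error alone, because neighbouring regions can share reads and regions are not replicates. Single windows made up 42.2% of the regions in Cbx3 set 1 and 51.6% in set 2, against 15.0% in Pol II. The median region was 100 bp wide in Cbx3 set 1, 50 bp in set 2 and 200 bp among regions of both sets, against 150 bp in Pol II. Regions of both sets were wider than those of either list, and a wider region has more bases with which to meet the other list. Taking the same number of regions from the top of each list raised the share of set 2 found in set 1 to 18.5%.

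The sets shared sites more often where Pol II was listed. Of the 729 set 2 regions at Pol II, 303 were also in set 1, or 41.6% (38.0 to 45.2%), against 10.8% of the 122876 set 2 regions away from Pol II. This held in each of 10 groups of equal size by set 2 signal, although the lowest 7 groups held 9 to 47 regions at Pol II. In the highest group the share was 54.9% at Pol II (128 of 233) and 39.1% away from it (4740 of 12128). Set 1 overlapped 37.2% of all 8094 Pol II regions, counted with or without set 2, so a high share at Pol II is not particular to set 2 regions. The set 2 regions were also wider at Pol II, with a median of 100 bp against 50 bp away from it, and width was not held equal. Seen from set 1 the pattern of sharing was weaker. Of 3047 set 1 regions at Pol II, 433 were in set 2, or 14.2%, against 3.33% of those away from Pol II. Within groups of equal set 1 signal the share at Pol II was the higher one in only 4 of the 9 groups that held any such region, and in the highest group it was 15.6% at Pol II and 13.8% away from it. That highest group held 2615 of the 3047 set 1 regions at Pol II, and within it the shares at and away from Pol II lay closer together than over all regions.

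The share of Pol II sites where Cbx3 was listed differed widely between the Cbx3 lists. Cbx3 of set 1 overlapped 3008 of the 8094 Pol II regions, or 37.2% (36.1 to 38.2%). Cbx3 of set 2 overlapped 729 of them, or 9.01% (8.40 to 9.65%). Cbx3 regions of both sets overlapped 445, or 5.50% (5.02 to 6.02%). In 282 of these set 2 itself overlapped the Pol II region, and in 163 the set 1 region met set 2 outside it. A further 125 Pol II regions held each set at separate places, and 4764, or 58.9%, held neither set. In the other direction 3047 of 394816 Cbx3 regions of set 1 held Pol II (0.772%), as did 729 of 123605 in set 2 (0.590%). Among Cbx3 regions of both sets 433 of 13473 held Pol II, or 3.21% (2.93 to 3.53%). The 5.50% became 10.5% when gaps of up to 1000 bp were joined, and 1.42% with equal numbers of regions. The 3.21% became 7.69% with equal numbers of regions, and 6.50% with the longer Pol II list of control siRNA cells in place of the untreated one.

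Cbx3 windows were centred on the Pol II summits. A Cbx3 window of set 1 was listed at 20.4% of the 8094 Pol II summits, against a mean of 1.26% at 4 to 5 kb on either side, a ratio of 16.2. For set 2 the shares were 3.57% at the summit and 0.428% on the flanks, a ratio of 8.34. For windows of both sets they were 1.27% and 0.0847%, a ratio of 15.0. These ratios are to the flank and not to the span. From 1 to 5 kb, Cbx3 summits stood at 0.669 of their span share in set 1, 0.724 in set 2 and 1.01 for both sets. The rise was narrow: set 1 stayed above the midpoint of summit and flank out to 300 bp on either side, and had returned to 2.80% at 1 kb upstream in genome coordinates and 2.82% at 1 kb downstream. At 2 kb it was 1.31% and 1.45%, close to the flank. Turned round, a Pol II window was listed at 1.60% of the summits of Cbx3 regions of both sets, against 0.0725% on their flanks, a ratio of 22.1. The 3 profiles had a like width although the set 1 list was several times longer than the set 2 list. The inputs were not used here, so whether chromatin without an antibody would give part of these profiles was not tested.

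**Figure D1:**
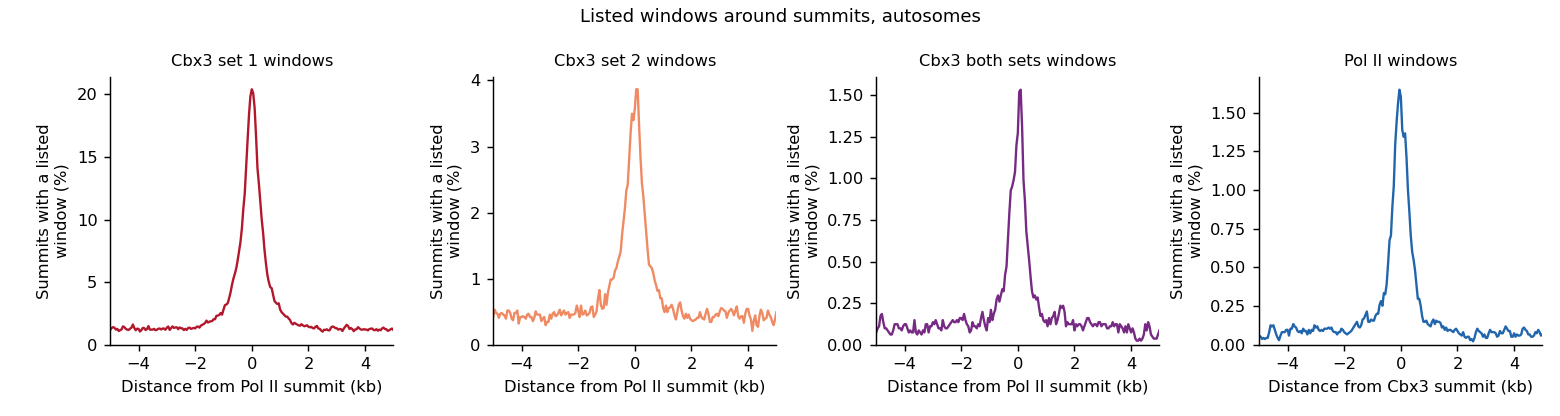
Share of summits (y axis, %) that had a listed 50 bp window at each distance from the summit (x axis, kb), for Cbx3 set 1, set 2 and both sets around the 8094 Pol II summits and for Pol II around the 13473 summits of Cbx3 regions of both sets. Each line is 1 list; all 4 rise within about 1 kb of the summit and are flat from 2 kb outward.

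The same excess appeared when summits were sorted by their distance to Pol II and set against the share of the autosomal span that lies as near. Of the summits of Cbx3 regions of both sets, 226 of 13473 lay inside a Pol II region, or 1.68%, against 0.0732% of the span, a ratio of 22.9. The ratio was 5.81 from the edge to 1 kb, and from there on it stayed between 0.963 and 1.02 in every class out to 1000 kb. Beyond 1 kb, sites of both sets were thus spread over the span much as its bases are. Cbx3 of set 1 gave 7.12 inside Pol II and 2.33 up to 1 kb. It then stood below 1, at 0.669 from 1 to 5 kb, 0.658 from 5 to 10 kb, 0.697 from 10 to 50 kb and 0.768 from 50 to 100 kb. Set 2 gave 6.31 inside, 2.45 up to 1 kb, 0.724 from 1 to 5 kb and 0.805 from 5 to 10 kb. It then gave 0.883 from 10 to 50 kb and 0.985 from 50 to 100 kb. Both lists were therefore rich at Pol II and poorer than the span around it. In set 1 this reached out to 100 kb at a similar level, and in set 2 it faded with distance.

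**Figure D2:**
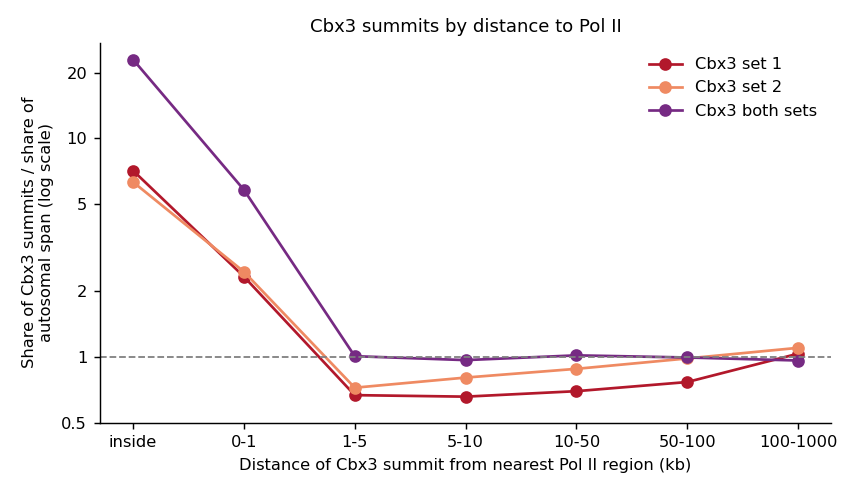
Share of Cbx3 summits divided by the share of the autosomal span (y axis, log scale) in classes of distance to the nearest Pol II region (x axis, kb), for Cbx3 set 1, set 2 and both sets. The dashed line at 1 marks an even spread. The lists stand at 7.12, 6.31 and 22.9 inside Pol II regions. Sets 1 and 2 lie below the line from 1 to 100 kb.

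Most Cbx3 regions, like most of the autosomal span, lay far from any listed Pol II. The median distance from a Cbx3 region of both sets to the nearest Pol II region was 230150 bp (95% interval of the median 219950 to 239200 bp). It was 407800 bp for all Cbx3 regions of set 1 and 271300 bp for those of set 2. Of the regions of both sets 5.24% lay within 1 kb of Pol II, 9.83% (9.34 to 10.3%) within 10 kb and 35.0% within 100 kb. The span itself lay within these distances for 0.663%, 5.37% and 30.4% of its bases, so regions of both sets were nearer to Pol II than the span. Within 10 kb the shares were 5.04% for set 1 and 5.56% for set 2, both near that of the span. From the side of Pol II the distances followed the length of each Cbx3 list, with a median of 100 bp to set 1, 6500 bp to set 2 and 65100 bp to regions of both sets. Within 1 kb of Pol II there was Cbx3 of set 1 for 75.4% of Pol II regions, of set 2 for 29.3% and of both sets for 9.66%. The span itself lay within 1 kb of these 3 lists for 27.5%, 9.54% and 1.18% of its bases. With the Pol II list of control siRNA cells the median distance of Cbx3 regions of both sets was 115150 bp, and 17.1% of them lay within 10 kb.

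Cbx3 regions that held Pol II were wider than those that did not. Their median width was 400 bp with Pol II (433 regions) and 200 bp without (13040 regions) among regions of both sets. In set 1 it was 200 bp with Pol II and 100 bp without, and in set 2 it was 100 bp with Pol II and 50 bp without. When gaps of up to 1000 bp were joined, the ratio of the medians for regions of both sets was 1 in place of 2. In set 1 the share of Cbx3 regions that held Pol II went up with their size, 0.220% for single windows, 0.462% for 2 windows, 1.42% for 3 to 5 windows, 4.17% for 6 to 10 and 9.11% for 11 to 20. It was 8.29% for the 205 set 1 regions of 21 windows or more. Set 2 gave a flatter series of 0.343%, 0.627%, 1.20%, 1.47%, 1.07% and 3.79% over the same classes, the last 2 from 7 and 5 regions with Pol II.

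Pol II regions with Cbx3 were also the wider ones. Their median width was 250 bp with Cbx3 of set 1 and 150 bp without it, and 250 bp with Cbx3 of set 2 and 150 bp without it. With Cbx3 of both sets it was 200 bp, against 150 bp without. The share of Pol II regions that overlapped set 1 was 19.4% for single windows, 25.4% for 2 windows, 36.7% for 3 to 5, 55.8% for 6 to 10, 66.6% for 11 to 20 and 76.2% for the 21 regions of 21 windows or more. A wider region has more bases that can meet Cbx3, so the count was repeated in a fixed 1 kb centred on each Pol II summit. In that fixed 1 kb the set 1 shares were 60.1%, 63.0%, 66.3%, 72.5%, 70.2% and 76.2% over the same classes. For set 2 the overlap went from 3.63% for single windows to 21.6% for 11 to 20, but in the fixed 1 kb only from 20.5% to 25.4%. The gradient with Pol II width was thus much smaller when the searched stretch was held at 1 kb.

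**Figure D3:**
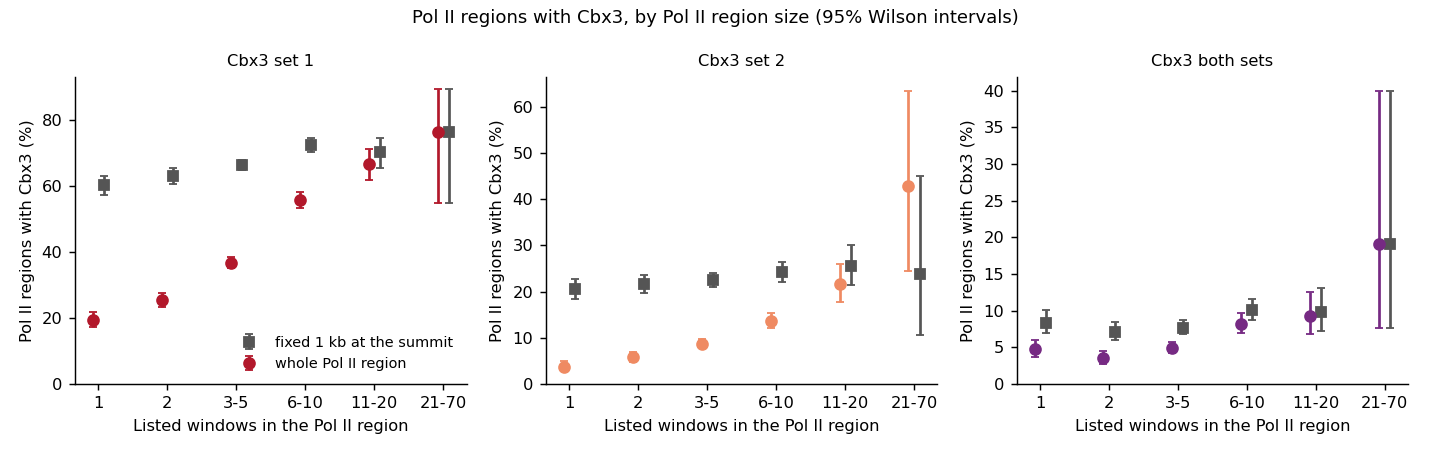
Share of Pol II regions with Cbx3 (y axis, %, with 95% Wilson intervals) by the number of listed windows in the Pol II region (x axis), for Cbx3 set 1, set 2 and both sets. Coloured circles count overlap with the whole Pol II region and grey squares count a fixed 1 kb at its summit; the circles climb steeply in sets 1 and 2 while the squares change less, with 60.1% for single windows and 72.5% for 6 to 10 windows in set 1.

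Over all 8094 Pol II summits, the fixed 1 kb held Cbx3 of set 1 at 5354, or 66.1% (65.1 to 67.2%), against 16.3% of all positions on the autosomal span, a ratio of 4.05. Cbx3 of set 2 was held at 1818, or 22.5% (21.6 to 23.4%), against 5.27% of the span, a ratio of 4.26. Regions of both sets were met at 669, or 8.27% (7.69 to 8.89%), against 0.683% of the span, a ratio of 12.1. The ratios of the long set 1 list and the short set 2 list were thus alike on this measure.

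The Cbx3 regions at Pol II were the strong ones of set 1. Their median signal was 60.2 with Pol II and 34.8 without. Of the 3047 set 1 regions with Pol II, 2615 fell in the highest decile of set 1 by signal (10 groups of equal size), where 6.62% of 39482 regions held Pol II. In the next decile the share was 0.618%, and in the lowest decile 2 of 39482 regions held Pol II. Of the 3955 set 1 regions in the highest 1% by signal, 839 held Pol II, or 21.2% (20 to 22.5%). The link to signal was not only one of width: among set 1 regions of a single window the median signal was 1.53 times as high with Pol II as without, and the ratio was 1.54 for 2 windows, 1.55 for 3 to 5, 1.51 for 6 to 10 and 1.36 for 11 to 20.

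In set 2 the link to signal was looser. The median signal was 18.1 with Pol II and 13.1 without, and the share of regions with Pol II was 0.0728% in the lowest decile and 1.88% in the highest. In the highest 1% of set 2 regions it was 2.25% (28 of 1243). At equal width the ratio of median signals was 1.31 for single windows, 1.29 for 2, 1.13 for 3 to 5 and 1.11 for 6 to 10 windows. It turned to 0.977 for 11 to 20 windows, where 7 regions held Pol II and 650 did not. Of the regions of both sets, ranked by their set 1 signal, 0 of 1348 held Pol II in the lowest decile (Wilson interval up to 0.284%), 8.54% in the next to highest decile and 13.8% (186 of 1348) in the highest. Their median set 1 signal was 66.8 with Pol II and 44.1 without.

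Pol II regions with Cbx3 also had the higher Pol II signal, by a smaller margin. The median Pol II signal was 19.1 with Cbx3 of set 1 and 16.5 without, 19.6 with set 2 and 17.1 without, and 18.6 with both sets and 17.3 without. Overlap with the Pol II region went up with Pol II signal, for set 1 at 24.2% in the lowest decile and 52.5% in the highest. It was 5.31% and 14.8% for set 2, and 4.94% and 7.90% for regions of both sets. In the fixed 1 kb the differences were smaller. Cbx3 of set 1 was present at 62.0% of the Pol II summits in the lowest decile by Pol II signal and at 70.2% in the highest. For set 2 these shares were 23.1% and 23.8%, and for both sets 8.64% and 10.2%. In the fixed 1 kb the Wilson intervals of lowest and highest decile overlapped for set 2 and for both sets, and not for set 1 (58.6 to 65.3% and 67.0 to 73.3%).

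Over bins of 1 Mb the 2 Cbx3 lists stood in different relations to Pol II. Across 2482 autosomal bins the Spearman correlation of listed windows with Pol II windows was -0.32 for Cbx3 set 1 (Pearson -0.18), 0.12 for set 2 (Pearson 0.07) and 0.23 for windows of both sets (Pearson 0.14). Regions of both sets counted against Pol II regions gave a Spearman value of 0.15. Cbx3 set 1 and set 2 correlated with each other at 0.43. Bins share a library, its depth and the mappable share of their bases, and neighbours are not independent, so the values are given with no p. Without the bins that no list entered, 2417 bins gave -0.39, 0.08 and 0.19. The value for set 1 was negative within 18 of the 19 autosomes (median -0.31, lowest -0.47, highest 0.01 on chromosome 19). Set 2 was positive within 17 of 19 (median 0.14), the exceptions being chromosomes 9 and 11. Windows of both sets were positive within 19 of 19 (median 0.20, range 0.07 to 0.44). At 100 kb the 3 values were -0.09, -0.02 and 0.09, and at 5 Mb they were -0.31, 0.24 and 0.25.

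The bins without Pol II set the contrast. Of the 2482 bins 891, or 35.9%, had no Pol II window, and they held 45.7% of all set 1 windows, 31.9% of all set 2 windows and 4418 of the 13473 regions of both sets (32.8%). The median number of set 1 windows per bin was 390 in bins with no Pol II window, 285 with 1 to 5, 289 with 6 to 10, 259 with 11 to 20, 254.5 with 21 to 40 and 262 with 41 or more. Set 2 had medians of 82, 94, 93, 94, 95 and 89 over the same classes. Windows of both sets had 6, 8, 8, 9, 10 and 13, and regions of both sets had 4, 4, 4, 4, 5 and 6. For set 1 the decline was mainly the step between bins with none and bins with any Pol II, and past 11 Pol II windows the median was level. The quartiles of neighbouring classes overlapped throughout.

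**Figure D4:**
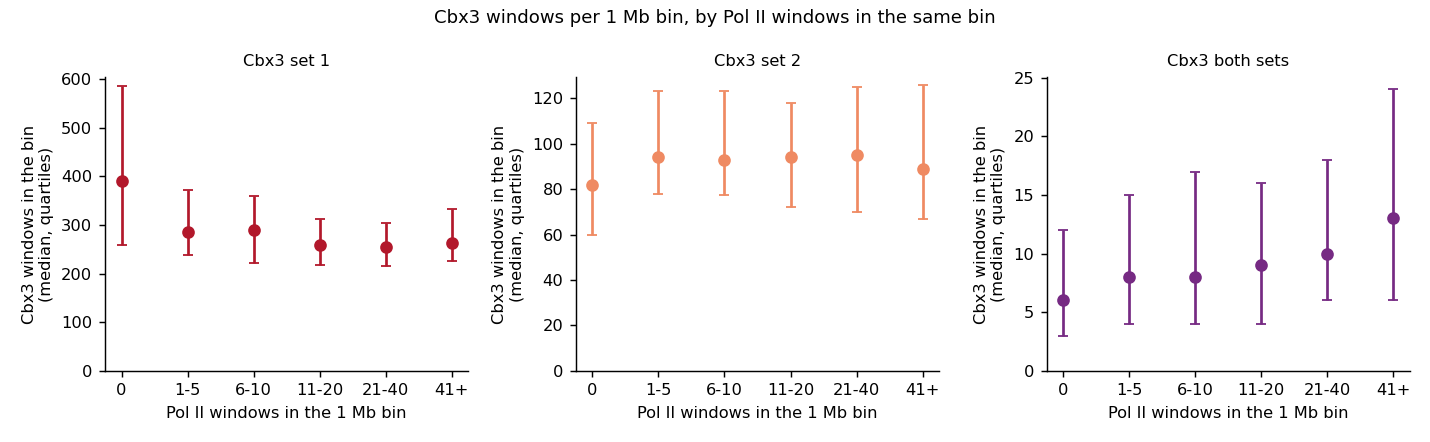
Listed Cbx3 windows per 1 Mb bin (y axis, median with quartiles) against the number of Pol II windows in the same bin (x axis, classes), for Cbx3 set 1, set 2 and both sets. Set 1 stands at 390 in the 891 bins without Pol II and between 254.5 and 289 in the other classes, set 2 between 82 and 95, and windows of both sets between 6 and 13.

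Some bins combined many Cbx3 regions with little Pol II, and others the reverse. The 5 bins with the most regions of both sets were chromosome 10 from 82 to 83 Mb (41 regions, 11 Pol II windows), chromosome 9 from 3 to 4 Mb (39 and 0), chromosome 1 from 7 to 8 Mb (31 and 10), chromosome 7 from 34 to 35 Mb (31 and 8) and chromosome 13 from 51 to 52 Mb (30 and 23). The bin with the most Pol II windows, 351, was chromosome 13 from 23 to 24 Mb, and it had 9 Cbx3 regions of both sets, 318 set 1 windows and 125 set 2 windows. The next 4, on chromosome 8 from 73 to 74 Mb, chromosome 3 from 96 to 97 Mb, chromosome 19 from 5 to 6 Mb and chromosome 10 from 79 to 80 Mb, had 168, 166, 164 and 159 Pol II windows and 8, 16, 9 and 4 Cbx3 regions of both sets. Among bins with no Pol II window, chromosome 9 from 3 to 4 Mb was followed by chromosome 10 from 124 to 125 Mb with 28 regions of both sets and by chromosome 2 from 36 to 37 Mb, chromosome 3 from 3 to 4 Mb and chromosome 4 from 146 to 147 Mb with 26 each. Coordinates are those of the mm9 build, per the submitters' processing notes. The gene table at hand is of another build, so no genes are named.

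Cbx3 was spread more evenly over the autosomes than Pol II. Cbx3 set 1 had a median of 349 listed windows per Mb, with the highest densities on chromosomes 17 (412), 3 (383) and 1 (381) and the lowest on chromosomes 19 (297), 2 (309.8) and 11 (314). Cbx3 set 2 had a median of 95.5, with the highest densities on chromosomes 8 (124), 17 (111) and 13 (107) and the lowest on chromosomes 12 (80.6), 2 (85.1) and 14 (86.7). Pol II had a median of 13.5, with the highest on chromosomes 11 (24.8), 8 (22.4) and 19 (20.8) and the lowest on chromosomes 14 (9.13), 18 (9.69) and 6 (9.99). The highest density was 1.39 times the lowest in Cbx3 set 1 and 1.54 times in set 2, against 2.72 times in Pol II. Over the 19 autosomes the Spearman correlation with Pol II density was -0.17 for Cbx3 set 1, 0.28 for set 2 and 0.43 for windows of both sets. Chromosome 19 was the lowest for Cbx3 set 1 and the third highest for Pol II, while chromosomes 8 and 17 were high for Cbx3 of set 2 and for Pol II alike.

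**Figure D5:**
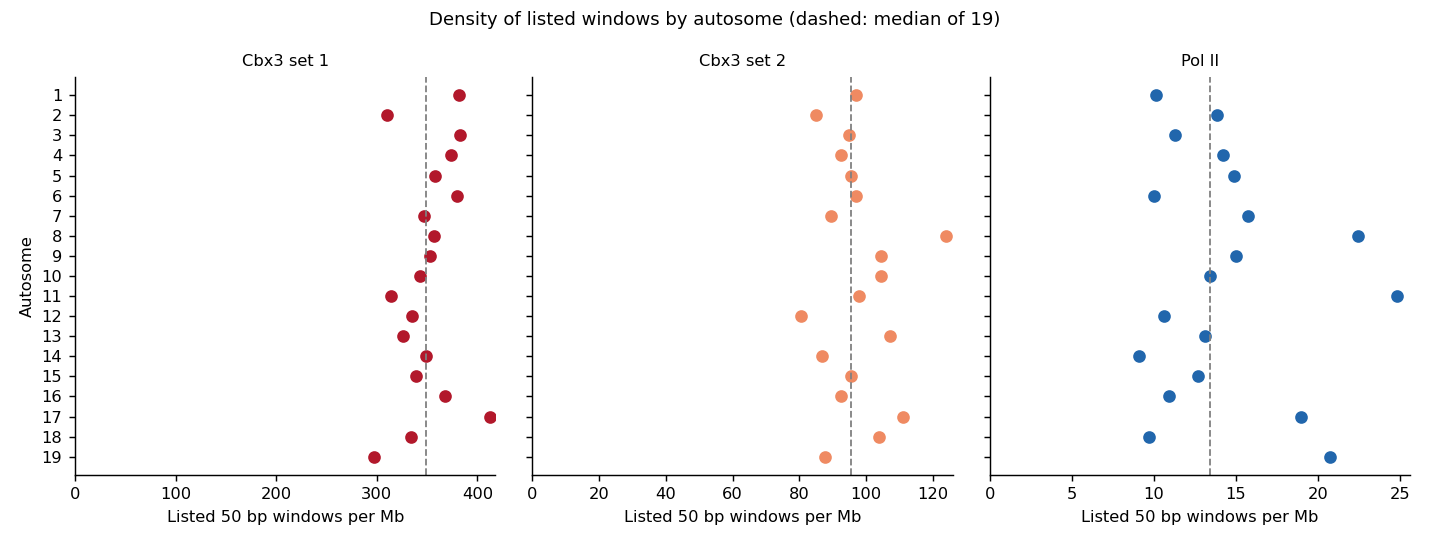
Listed 50 bp windows per Mb (x axes) on each of the 19 autosomes (y axis) in Cbx3 set 1, Cbx3 set 2 and Pol II, with 1 point a chromosome and the median dashed. The axes start at 0; Cbx3 set 1 lies between 297 and 412 and Pol II between 9.13 and 24.8.

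The share of Pol II regions with Cbx3 also varied by chromosome. For set 1 it was 45.8% on chromosome 14 and 27.4% on chromosome 18, the highest and lowest. For regions of both sets it was 8.30% on chromosome 14 (21 of 253) and 3.56% on chromosome 10 (15 of 421). Chromosome 14, where Pol II was sparsest, had the highest share for set 2 too (12.3%, 31 of 253). Its Wilson intervals were 39.8 to 52.0% for set 1, 8.77 to 16.9% for set 2 and 5.49 to 12.4% for both sets. Those of set 2 and of both sets held the shares over all autosomes, 9.01% and 5.50%. Chromosome 18, with the next lowest Pol II density (9.69 windows per Mb), had the lowest set 1 share, so sparse Pol II did not go with more Cbx3 throughout. In the other direction the share of Cbx3 regions of both sets that held Pol II was highest on chromosome 19 at 5.52% (16 of 290) and lowest on chromosome 10 at 1.93% (15 of 777).

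Of the 5 longest autosomal regions of both Cbx3 sets, 1 held Pol II. Over all 178 regions of both sets with 21 windows or more it was 11 (6.18%), against the 3.21% of all regions of both sets. On chromosome 11 from 3080551 to 3100100 Cbx3 was listed over 19350 bp in set 1 and 5250 bp in set 2, with no untreated Pol II. That stretch held windows of 7 of the 9 libraries, among them 100 bp of Pol II from control siRNA cells, so it is not particular to Cbx3 either. On chromosome 8 from 125950201 to 125954150 Cbx3 was listed over 3950 and 3650 bp, and none of the other 7 libraries had a window there. On chromosome 9 from 3024501 to 3027950 it was listed over 3450 bp in either set, with a highest signal of 693 in set 1 and 10783 in set 2. On chromosome 6 from 37822451 to 37825500 it was listed over 3050 and 2450 bp. The exception was chromosome 17 from 39979851 to 39983750, with 3900 and 3850 bp of Cbx3 and 2100 bp of Pol II, and with windows of all 9 libraries of the series. Such a stretch, which every antibody recovered, is not particular to Cbx3 or Pol II.

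The strongest sites shared by both proteins lay largely in or near that stretch. Of the 5 Pol II regions of highest signal with Cbx3 of both sets, 4 lay on chromosome 17 between 39980151 and 39985300, with Pol II signals of 168, 157, 153 and 136. Among these 4, the region from 39984901 to 39985300 lay past the end of that stretch. Each of the 4 had windows of 7 or 8 of the 9 libraries. The remaining region of the 5 was on chromosome 15 from 74917301 to 74917500, with a Pol II signal of 139 and a highest signal of 691 in Cbx3 set 1 and 979 in set 2. Only the 3 libraries of untreated cells had a window there. Without the regions above 10 times the median window and the stretches listed in all libraries, 5.30% of Pol II regions held Cbx3 of both sets, so these few sites did not carry the overlap. Among Pol II regions with no Cbx3 of either set, the highest signals were on chromosome 8 from 11557451 to 11558100 (144), on chromosome 11 from 87240151 to 87240950 (119), from 87236251 to 87237000 (111) and from 87262251 to 87262800 (104), and on chromosome 10 from 39978201 to 39978750 (102). Pol II could thus be strong with no listed Cbx3, in 3 cases within about 30 kb of each other.

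Pol II regions with Cbx3 were more often listed for Med26, a subunit of the Mediator coactivator, than those without. Med26 of control siRNA cells was listed at 42.7% (38.2 to 47.3%) of the 445 Pol II regions that met a Cbx3 region of both sets and at 27.3% (26.1 to 28.6%) of the 4764 with neither set. The Med26 share was 47.9% (42.1 to 53.7%) at the 282 where set 2 lay within the Pol II region and 33.7% (26.9 to 41.3%) at the 163 where it lay outside. Cdk8, the kinase of Mediator, was listed at 8.54% of the 445 Pol II regions with Cbx3 of both sets. With neither set it was listed at 3.30% of the 4764. Within 4 equal classes of Pol II signal, low to high, the Med26 shares were 24.7%, 33.3%, 50% and 55.5% with Cbx3 of both sets, against 12.8%, 22.1%, 35.9% and 46.5% with neither. The Med26 share was thus higher with Cbx3 of both sets in each class, and the Wilson intervals overlapped in the highest one. The median Pol II width was 200 bp with both sets and 150 bp with neither, and width was not held equal here. Over all signals the Med26 share was 40.2% with set 1 alone and 37.0% with set 2 alone. It was 55.2% where each set lay at a separate place, with a median width of 400 bp. These Mediator libraries came from transfected cells. Pol II regions had windows of a median of 5 of the 9 libraries with Cbx3 of both sets and of 3 with neither set, and the part of such shared listing in the Med26 difference was not tested. Cbx3 regions of both sets had windows of a median of 6 of the 9 libraries where they held Pol II, and of 2 where they did not. The 9 include the 2 Cbx3 libraries and the untreated Pol II library that define these classes. Part of the difference in each of these 2 comparisons of medians is therefore fixed by the classes themselves.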

How the data were processed

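The deposited files of 9 antibody libraries list 50 bp windows with a signal made by the authors. Per the submitters' processing notes, reads were aligned with Bowtie and the build was mm9. Not given in the sources used here are the aligner's version, the scaling of the signal, the threshold and test by which windows were kept, and whether the inputs entered it. The members, regions and alternatives compared here were chosen with earlier results of these data known.

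Autosomal windows were joined across gaps of up to 200 bp, and an overlap needed 1 bp or more. A region's signal is that of its highest window. For counts per bin and per chromosome, and for the profiles, "both sets" means windows listed in both sets (30644, or 3.52% of the set 1 windows and 12.8% of those of set 2). The autosomal span, 2472 Mb, ends at the last listed base of each chromosome over the 3 lists. Distances run between edges, and from summits where sorted into classes of distance to Pol II. Shares of regions within a given distance were counted from edges, also where set beside the span. The named bins and regions are the top 5 of each kind, and the named chromosomes are the highest and lowest 3. Merging, overlap and distance were tested on simulated data with 5000 regions. There 40% of regions were made to overlap, 40% were found to, and no region differed from a base-by-base count. Alternatives covered overlap, merging, signal, width, equal numbers, bin size, each Cbx3 set alone and another Pol II list. The work was done in Python 3.11.15 (pandas 2.3.3, numpy 2.4.6, scipy 1.17.1), with matplotlib 3.10.9 for the figures.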

Additional observations from a re-analysis of the deposited data

Results flagged for a closer look

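The comparison was held to the autosomes, and the lists also held windows on other chromosomes. On chromosome X there were 48282 windows in Cbx3 set 1 and 4558 in Cbx3 set 2, against 194 in Pol II. Per Mb this was 82.2% of the autosomal density in Cbx3 set 1, 28.3% in set 2 and 8.31% in Pol II. On chromosome Y there were 4230 windows in set 1 (1457 per Mb of the span listed) and 854 in set 2 (294 per Mb), and none in Pol II. The mitochondrial genome held 185 windows of set 1 and none of set 2 or of Pol II. No library of these cells without an antibody was used here, so no control level stands beside these counts.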

How the results depend on the processing

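Of 62 alternative values, 20 moved by no more than the error, 40 moved by more and 2 correlations changed sign. The error was the 95% interval for shares and medians, and the SD between the 2 Cbx3 sets for correlations and width ratios, where it was 0 for the ratios. For the correlations this SD is wide. It comes from the values of each set alone, -0.32 and 0.12 per 1 Mb bin, which are themselves among the alternatives. No correlation was counted as moved on this measure, so it says little about their stability. The causes were not tested beyond what each setting changes by construction. The share of set 2 regions in set 1 (11%) was 10.5% when 50% of the shorter region had to overlap, 10.7% with touching windows merged, 16.2% with gaps up to 1000 bp, 12.9% above the median signal, 15.4% with 2 or more windows and 18.5% with equal numbers. The share of Pol II regions with Cbx3 of both sets (5.50%) was 4.67%, 4.70%, 10.5%, 5.61%, 4.07% and 1.42% in the same order, 8.27% in a fixed 1 kb, a setting chosen after seeing the data, and 9.01% to 37.2% with 1 set left out. The share of Cbx3 regions of both sets with Pol II (3.21%) was 2.89%, 2.87%, 4.24%, 2.60%, 3% and 7.69%, 6.50% with control siRNA Pol II and 0.590% to 0.772% with 1 set left out.

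The median distance to Pol II (230150 bp) was 277050 bp with gaps up to 1000 bp, 291450 bp above the median signal, 115150 bp with control siRNA Pol II and 271300 to 407800 bp with 1 set left out. The share within 10 kb (9.83%) was 17.1% with control siRNA Pol II and 5.04% to 5.56% with 1 set left out; within 1 kb it was 5.24% and within 100 kb 35.0%. The width ratio of Cbx3 regions with Pol II to those without (2) was 1, 1.4 and 1.75 with gaps up to 1000 bp, above the median signal and with control siRNA Pol II, and 2 with either set left out. The width ratio of Pol II regions with Cbx3 of both sets to those without (1.33) was 1.25, 1.2 and 1.5 in that order and 1.67 with either set left out. The correlation per 1 Mb bin (0.23) was -0.32 with set 1 alone and 0.12 with set 2 alone, and 0.09 to 0.25 under the other settings. That over the autosomes (0.43) was -0.17 with set 1 alone, 0.28 with set 2 alone and 0.40 with control siRNA Pol II. No paired analysis was possible because Pol II had 1 library and no test was run.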
